A study of Mus musculus with 4 samples.

Results

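The genes described here encode the proteins of the cytosolic ribosome, followed in inflamed ears of mice with and without a RelA mutation of the epidermis. Members were chosen by name. All non-control spots were taken whose gene name was Rpl or Rps followed by a digit, or was Rplp0, Rplp1, Rplp2 or Rpsa, and S6 kinase names (Rps6k) and pseudogene names (-ps) were left out. The rule took 86 of the 34797 gene names on the array, with 191 of 55681 probes and 200 of 59305 spots. They comprised 46 proteins of the large subunit, 31 of the small subunit, 8 paralogs (close relatives of a ribosomal protein gene), and Rps19bp1, which encodes a binding partner of Rps19 and no ribosomal protein. The rule used names and no measured values, but members were chosen with earlier results of these data known.

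RNA came from whole ear tissue of 4 mice, 2 per genotype, 48 h after the ear was treated with 2,4-dinitrofluorobenzene (DNFB), a contact allergen. Wild-type mice were RelAfl/fl, so that they carried the floxed allele of RelA, the p65 subunit of NF-kB, without Cre. Mutant mice were K14Cre RelAfl/fl, in which the keratin 14 promoter drives Cre in keratinocytes, so that other cells of the ear keep RelA and Cre was present in the mutants only. Each sample gave 1 single-colour Agilent array labelled with Cy3 from 100 ng of RNA, and no untreated ear, age or sex is given in the labels used here. The comparison asks what loss of epidermal RelA did to the ear under allergen, and here what it did to the transcripts of the ribosome.

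A ribosome holds 1 copy of most of its proteins, and cells keep the transcripts of these proteins at matched, high levels. These transcripts start with a run of pyrimidines at the cap, the terminal oligopyrimidine (TOP) motif, through which the kinase mTOR sets how much of them is translated, largely without a change in transcript level. Several members have roles of their own in skin or in NF-kB signalling. Rps3 can bind RelA and join its complexes on DNA, and mice with mutated Rps19 or Rps20 have dark skin through p53 activity in keratinocytes.

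Where levels are given, the wild types come before the mutants and mouse 1 before mouse 2. Levels are log2 spot intensities relative to the 75th percentile of the same array, so that a level of 0 is that percentile. A level belongs to its probe, and levels of different probes are not compared. Differences are mutant minus wild type on the log2 scale, given ± the moderated standard error of limma (2 mice per group) with the p-value adjusted over all 23624 genes tested. The labels name separate mice, and with 2 against 2 an exact permutation test cannot reach 0.05. The 75th percentile lay between 589 and 664 in intensity, 61.21% to 64.27% of spots were well above background and none was saturated. Rela itself had levels of 4.48 and 4.60 in the wild types and 4.59 and 4.72 in the mutants (0.11 ± 0.12, adjusted p = 0.887). Its spot lies in a corner of the array of mutant mouse 2 that held failed spots, and which exons Cre removes is not stated in the labels, so that this value is no check of the genotype. Krt14 reached 7.68 and 8.10 in the wild types and 8.13 and 8.13 in the mutants, all 7 keratinocyte markers were measured in every mouse, and all muscle, neutrophil, T cell, adipocyte and fibroblast markers listed for an ear were measured too. In such a mixture fewer cells of a type and less RNA per cell cannot be told apart.

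A pyrimidine run is visible in the genome around the annotated start sites of many members, and 6 that have one are shown as examples because TOP transcripts are known by it. The windows run from 30 bases before the start to 20 bases from it on, 5′ to 3′ on the strand of the gene (RefSeq, GRCm38.p6), with the longest run of C and T in capitals. Rpl7a is at chr2:26910777-26910826 (plus strand), Rpl27a at chr7:109519165-109519214 (plus), Rpl15 at chr14:18270967-18271016 (minus), Rps6 at chr4:86857348-86857397 (minus), Rplp2 at chr7:141447621-141447670 (plus) and Rpl38 at chr11:114668550-114668599 (plus).
Rpl7a: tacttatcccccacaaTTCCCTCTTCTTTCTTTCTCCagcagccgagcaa
Rpl27a: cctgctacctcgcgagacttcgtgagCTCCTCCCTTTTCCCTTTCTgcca
Rpl15: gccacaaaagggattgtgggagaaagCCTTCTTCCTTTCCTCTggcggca
Rps6: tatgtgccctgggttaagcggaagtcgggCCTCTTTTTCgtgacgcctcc
Rplp2: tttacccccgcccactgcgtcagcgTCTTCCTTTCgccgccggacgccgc
Rpl38: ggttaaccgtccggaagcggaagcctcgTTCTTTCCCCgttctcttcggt
Run lengths were 21 bases in Rpl7a, 20 in Rpl27a, 17 in Rpl15 and 10 in Rps6, Rplp2 and Rpl38. Of the 77 subunit genes, 57 matched a RefSeq promoter, and a gene with several start sites was counted once, if any of them held the motif. A run of at least 8 pyrimidines that began within 20 bases of the start was present in 29 of these 57 (50.9%), against 5293 of 27025 genes with a promoter in all (19.6%). The other 28 had none at their annotated starts, among them Rplp0, Rps3, Rps19 and Rpl23. A counted run need not cover the start, so that 29 is not a count of TOP motifs at the cap. The runs of Rpl4 and Rpl5 began 18 and 20 bases before the start and ended before it. That of Rps12 began 8 bases after it. All 6 examples above cover the start. CCGGAAG, on either strand of the 300-base promoter window (250 before and 50 after the start), was present in 24 (42.1%) against 9.93% of all genes with a promoter. GATGGC, also on either strand, was present in 14 (24.6%) against 15.9%. The sequence classes did not separate the expression differences: the median log2 difference was 0.06 with the pyrimidine run and 0.06 without it, 0.05 and 0.07 with and without CCGGAAG, and 0.07 and 0.06 with and without GATGGC. A match is a description of the letters only, and no match says nothing of the factor.

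No ribosomal protein transcript was called different between mutant and wild-type ears. Of the 86 members 85 were tested, and 0 passed an adjusted p of 0.05 in limma, against 4 of 23624 genes (0.0169%). At an unadjusted p under 0.05 there were again 0 of 85, where 1537 genes passed over all genes (6.51%, of which 2.96% higher and 3.55% lower in the mutants). Few other bright genes passed either: 6 of 334 with a mean level from 7 to 9 and 17 of 1289 with a level above 5. No member was at least 2-fold apart, against 1.8% of all genes. The smallest adjusted p of a member was 0.865. The untested member, the testis paralog Rpl10l, was not well above background on any array with either of its probes.

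Differences were small in both subunits. The median log2 difference was 0.06 over the 46 large-subunit genes, 0.05 over the 31 small-subunit genes and 0.01 over all genes tested. The 77 subunit genes ranged from -0.04 (Rpl23) to 0.18 (Rps14), and 65 of them differed by less than 0.1. Their median size of difference was 0.06, against 0.12 over all genes. Every one of the 77 intervals (95%) included 0, and all lay within 0.5 of it, the widest bounds being -0.38 for Rpl23 and 0.48 for Rps14. The median standard error was 0.109 for members and 0.133 for all genes.

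**Figure D1:**
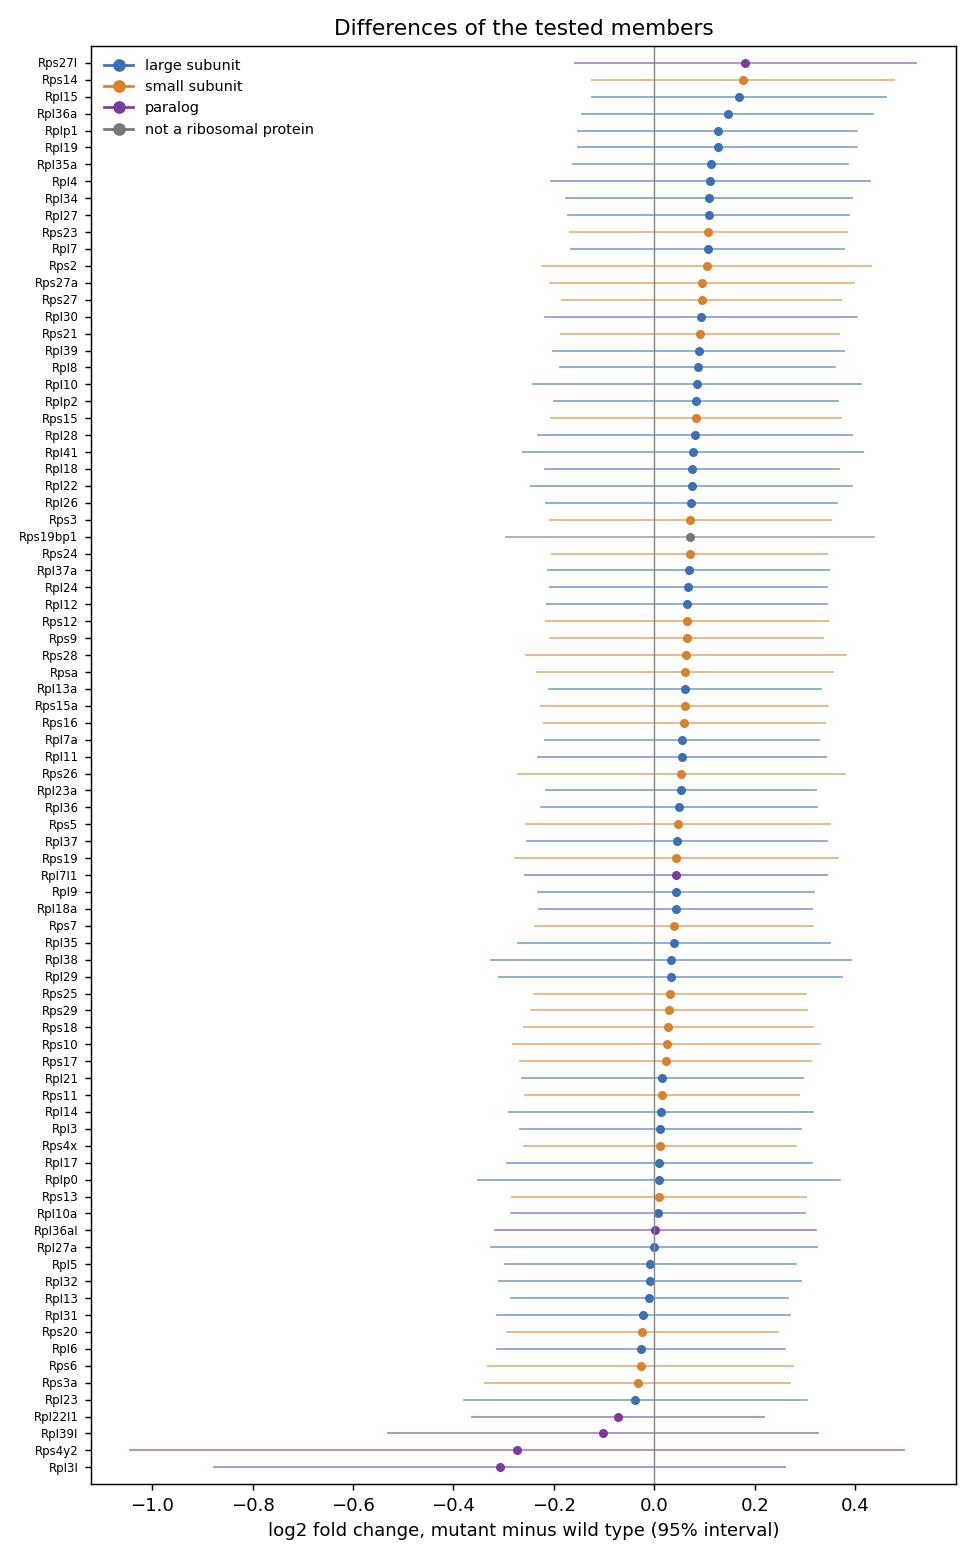
Log2 fold change (mutant minus wild type, x axis) of the tested members, ordered by size and without 1 that is not shown, with the 95% interval of the limma fit as a line and colours for the class of the gene. Every interval crosses 0, the subunit genes lie between -0.04 and 0.18, and the paralogs Rps4y2 and Rpl3l have the lowest values.

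The sign of these small differences was mostly positive. Among the subunit genes 68 of 77 had a difference above 0, where 53.5% of all genes did. In 31 of the 85 members (36.5%) both mutants lay above both wild types, and in 1 (1.18%) both lay below, against 18.9% and 17.4% of all genes (36.3% in either direction). Bright genes in general leaned the same way. Among 1289 other genes with a mean level above 5 the median difference was 0.05, and 27.2% had both mutants above and 7.53% both below. For 334 other genes with a level from 7 to 9, where most members lie, these values were 0.05, 28.7% and 5.69%. The direction count moved with the scaling: it was 12 above and 8 below after quantile normalization, and 17 and 0 after centring on the array median. Over all genes 36.6% and 33.9% did not overlap in these settings, a larger share than among the members.

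The pattern rested largely on wild-type mouse 1 and mutant mouse 1. Wild-type mouse 1 had the lowest value in 60 of the 77 subunit genes (77.9%), against 34.2% of all genes, and mutant mouse 1 the highest in 53 (68.8%), against 24.8%. Relative to the mean of the other mice, wild-type mouse 1 was at a median of -0.09, with a range from -0.20 to 0.03 over the genes. The mutant mean exceeded wild-type mouse 2 in 48 of the 77 genes, by a median of 0.01. Without wild-type mouse 1 the median difference of the members was 0.01, and without wild-type mouse 2 it was 0.09. Without mutant mouse 1 it was 0.03, and without mutant mouse 2 it was 0.08. Median deviations from the mean of a gene were -0.07 and 0.01 in the wild types (mouse 1, then mouse 2) and 0.06 and 0.00 in the mutants. For the other genes with a level above 5 they were -0.07, 0.03, 0.05 and 0.01. Wild-type mouse 1 also stood apart in the 3 red blood cell markers, whose summed level (in multiples of the 75th percentile) was 116 there, 47.2 in wild-type mouse 2, and 56.9 and 38.3 in the mutants. Their part in the result was not tested.

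**Figure D2:**
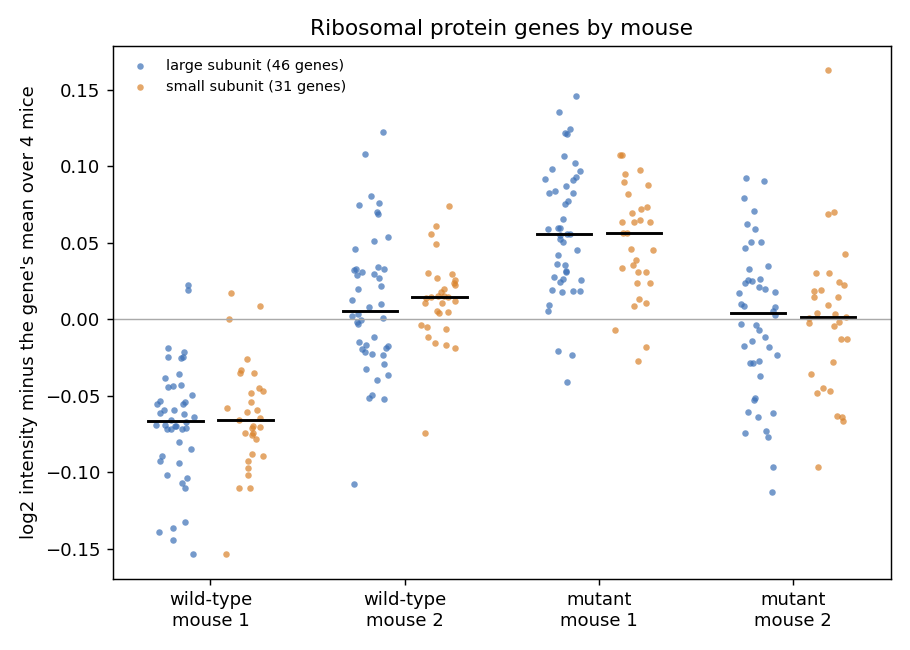
Log2 intensity of each subunit gene minus its mean over the 4 mice (y axis), by mouse, for 46 large-subunit and 31 small-subunit genes, with black lines at the medians. Both subunits show the same order, with wild-type mouse 1 lowest, mutant mouse 1 highest, and wild-type mouse 2 and mutant mouse 2 close to 0.

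Among large-subunit genes, Rpl15 had the largest difference. Its levels were 6.67 and 6.78 in the wild types and 6.93 and 6.85 in the mutants, without overlap (0.17 ± 0.11, adjusted p = 0.865, probe at chr14:19101657-19101716, mm9). Rpl36a had 6.10 and 6.03 against 6.26 and 6.16 (0.15 ± 0.11, adjusted p = 0.875), and Rpl19 had 6.92 and 6.98 against 7.05 and 7.10 (0.13 ± 0.10, adjusted p = 0.878). For each of these both mutants were above both wild types, and the 95% interval of the difference included 0. Rpl35a, Rpl4 and Rpl34 each differed by 0.11, and for Rpl4 the groups overlapped, since wild-type mouse 2 (7.05) exceeded mutant mouse 1 (7.03). At the other end, Rpl23 had 8.01 and 8.18 in the wild types and 8.14 and 7.98 in the mutants (-0.04 ± 0.13, adjusted p = 0.972), and Rpl6 had a difference of -0.03.

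The stalk of the large subunit, which recruits elongation factors, is formed by Rplp0 with Rplp1 and Rplp2. Rplp1 had levels of 7.93 and 8.01 in the wild types and 8.08 and 8.10 in the mutants (0.13 ± 0.10, adjusted p = 0.878). Rplp2 had 8.19 and 8.26 against 8.34 and 8.28 (0.08 ± 0.11, adjusted p = 0.911). Both had mutants above wild types without overlap. Rplp0, widely used as a reference gene in PCR, had 8.59 and 8.84 against 8.68 and 8.77 (0.01 ± 0.14, adjusted p = 0.992). Here both mutants lay between the wild types, and the wild types were the farther apart.

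Large-subunit members known for a role outside the ribosome, a mouse mutant or a human disorder showed no larger differences. Rpl5 and Rpl11, which with 5S RNA can bind Mdm2 and so stabilise p53, had differences of -0.01 ± 0.11 and 0.05 ± 0.11. Rpl5 was at 6.05 and 6.01 in the wild types and 6.08 and 5.96 in the mutants, and Rpl11 at 7.07 and 7.18 against 7.19 and 7.18. Rpl13a, which can leave the ribosome under interferon gamma to silence translation of inflammatory transcripts, was at 7.31 and 7.30 against 7.38 and 7.34 (0.06 ± 0.10). Rpl24, mutated in the belly spot and tail mouse, was at 7.66 and 7.73 against 7.77 and 7.76 (0.07 ± 0.10). Rpl38, mutated in the tail short mouse, was at 7.82 and 7.89 against 8.02 and 7.76 (0.03 ± 0.13), so that its highest and lowest values were both mutants. Rpl21, linked to inherited hair loss in humans, was at 6.39 and 6.47 against 6.46 and 6.43 (0.02 ± 0.11). The adjusted p-values of these 6 genes lay between 0.925 for Rpl24 and 0.992 for Rpl5.

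Among small-subunit genes, Rps14 had the largest difference, with 8.50 and 8.53 in the wild types and 8.62 and 8.77 in the mutants (0.18 ± 0.11, 95% interval -0.12 to 0.48, adjusted p = 0.865). Rps3, the RelA partner, was at 6.80 and 6.88 against 6.93 and 6.89 (0.07 ± 0.11, adjusted p = 0.920). The groups of Rps3 did not overlap, by 0.01 between the nearest mice. Rps6, the main ribosomal substrate of the S6 kinases, was at 7.44 and 7.56 against 7.52 and 7.42 (-0.03 ± 0.11, adjusted p = 0.978). Rps27a, made as a fusion with ubiquitin, was at 8.06 and 8.18 against 8.27 and 8.17 (0.10 ± 0.11, adjusted p = 0.907). Rpsa, also known as a precursor of the laminin receptor, was at 8.27 and 8.38 against 8.35 and 8.42 (0.06 ± 0.11, adjusted p = 0.939). Wild-type mouse 2 lay above both mutants in Rps6 and above 1 of them in Rps27a and Rpsa.

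The genes of the dark-skin mutants gave no common direction. Rps19 was at 5.99 and 6.10 in the wild types and 6.17 and 6.0 in the mutants, which overlapped (0.04 ± 0.12, adjusted p = 0.966). Rps20 (probe at chr4:3761620-3761679, mm9) was at 8.57 in both wild types and at 8.53 and 8.56 in the mutants. It was the only one of the 85 tested members with both mutants below both wild types, and the difference was -0.02 ± 0.10 (adjusted p = 0.978). Rps3a, now named Rps3a1, had a difference of -0.03 with overlapping groups.

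The paralogs had differences from -0.31 to 0.18. Over the 7 tested paralogs the median difference was -0.07, with 3 above 0 and 4 below, and 0 were called. Rps27l, a p53 target beside the ubiquitous Rps27, was at 5.23 and 5.41 in the wild types and 5.58 and 5.42 in the mutants (0.18 ± 0.13, adjusted p = 0.872, probe at chr9:66795486-66797176, mm9). Its groups were apart by 0.02 between wild-type mouse 2 and mutant mouse 2. Rps27 was at 7.94 and 8.0 against 8.04 and 8.09 (0.09 ± 0.10). That Rps27 probe is placed on another chromosome than the gene, and its spot lies in the corner of failed spots. Rpl22l1, the paralog of Rpl22, was at 5.59 and 5.47 against 5.48 and 5.44 (-0.07 ± 0.11, adjusted p = 0.924). Rpl22 itself was at 7.17 and 7.14 against 7.33 and 7.13 (0.07 ± 0.12). Rpl36al, beside Rpl36a, and Rpl7l1, beside Rpl7, differed by 0.00 and 0.04, where Rpl7 differed by 0.11.

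The largest differences of all members, down to -0.31, were those of paralogs with limited expression. Rpl3l, the form of Rpl3 made in skeletal and heart muscle, was at 0.18 and -0.12 in the wild types and -0.04 and -0.52 in the mutants (-0.31 ± 0.21, 95% interval -0.88 to 0.26, adjusted p = 0.872). Mutant mouse 1 lay between the wild types, and mutant mouse 2 was lowest, with its spot in the corner of failed spots. The summed level of the 5 muscle markers followed the same order over the mice, at 155 and 129 in the wild types and 139 and 99.1 in the mutants, and their part in the difference was not tested. Rpl3 was at 7.20 and 7.27 against 7.22 and 7.27 (0.01 ± 0.11). Rps4y2, now named Rps4l, was at 2.49 and 1.98 against 2.28 and 1.65 (-0.27 ± 0.29, adjusted p = 0.896). The mice of each genotype lay far apart, and the groups overlapped. Rps4x, its counterpart on the X chromosome, differed by 0.01. Rpl39l, known from testis, was at 0.26 and -0.02 against 0.14 and -0.11 (-0.10 ± 0.16), and Rpl39 at 6.96 and 7.01 against 7.13 and 7.02 (0.09 ± 0.11). Rps19bp1 was at 1.69 and 1.91 against 1.96 and 1.78 (0.07 ± 0.14).

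Most members were measured with several probes, which allows a check within a gene. In 56 members with at least 2 probes above background outside the corner, the differences of the probes of a gene spanned a median of 0.07, and in 14 of the 56 probes of both signs occurred. Rpl6 had the widest span, from -0.03 to 1.22, the latter from a dim probe at -2.25 and -3.71 in the wild types and at -2.69 and -0.83 in the mutants. In Rps27a (0.30) and Rpl30 (0.26) the span came from a dim probe near the 5′ end of the transcript. The Rps27a probe at base 42 had levels of -5.43 and -5.12 in the wild types and -4.45 and -5.35 in the mutants, the lowest in wild-type mouse 1, a difference of 0.38. The probe that stands for Rps27a, at base 689, had a difference of 0.10. For Rpl30 the probe at base 90 was at 0.70 and 1.17 against 1.33 and 1.16, again lowest in wild-type mouse 1. Over the 8 member probes that start in the first 100 bases the median difference was 0.14, with wild-type mouse 1 at -0.13 and mutant mouse 1 at 0.20 relative to the other mice. Over the 18 that start after base 100 and up to base 250 these values were 0.04, -0.06 and 0.12, so that the larger values were those of the first 100 bases. Over the 62 that start after base 500 and up to base 1000 the median difference was 0.06, with -0.08 and 0.06 for those mice. For probes of any gene the medians were 0.04, 0.04 and 0.02 in these ranges. Both sets were limited to probes well above background on every array and outside the corner.

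Rpl23 was spotted 10 times with 1 probe, which shows how well an array repeats itself. The spots averaged 2.49 ± 0.04 and 2.27 ± 0.04 (SD, n = 10 spots of the array) in wild-type mice 1 and 2, and 2.40 ± 0.04 and 2.34 ± 0.05 in mutant mice 1 and 2. Wild-type mouse 1 was the highest for this probe, while for the brighter probe that stands for the gene it was below wild-type mouse 2. Spots are repeats of a measurement and not of a mouse, and the 2 wild types, with spots from 2.41 to 2.56 and from 2.21 to 2.30, did not overlap, with both mutant means between them.

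**Figure D3:**
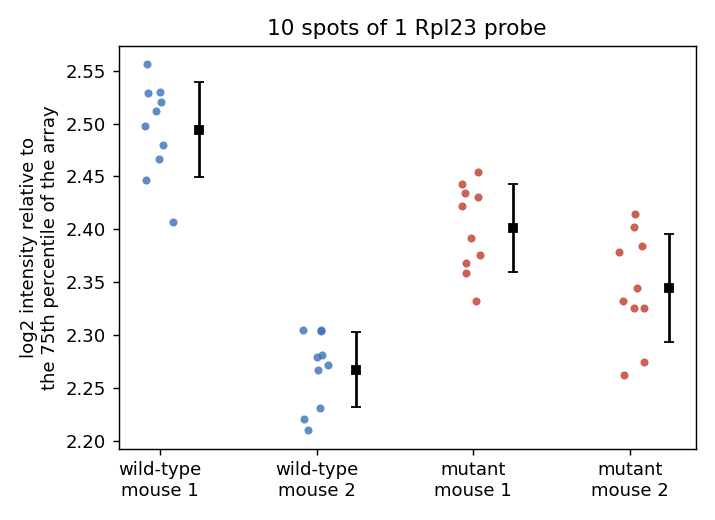
Log2 intensity relative to the 75th percentile of the array (y axis) of 10 spots of 1 Rpl23 probe on the arrays of 4 mice, with black squares and bars for the mean and SD over spots. The spots of wild-type mouse 1 lie above those of wild-type mouse 2, and the means of both mutants lie between those of the wild types.

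Ribosomal protein genes have many processed pseudogenes, and probes that differ by a few bases are listed under 1 name. Of 23 pairs of overlapping member probes 18 could be aligned by their stated starts, and 15 of these, in 11 genes, differed by at least 1 base. Whether such probes read other copies was not tested. The probes below are examples from Rpl11 and Rpl7a, all placed on the chromosome of their gene. Each is 60 bases, 5′ to 3′, with differing bases in capitals, as the array design gives them (mm9). The Rpl11 probes are placed at chr4:135605902-135606224 and chr4:135605879-135606201, and both Rpl7a probes at chr2:26768759-26768818.
Rpl11 probe A_55_P1967076: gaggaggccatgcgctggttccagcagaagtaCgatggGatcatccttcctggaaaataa
Rpl11 probe A_55_P2010341: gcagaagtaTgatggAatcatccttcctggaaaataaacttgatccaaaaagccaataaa
Rpl7a probe A_55_P2001347: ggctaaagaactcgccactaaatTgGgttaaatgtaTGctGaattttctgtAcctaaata
Rpl7a probe A_55_P2037922: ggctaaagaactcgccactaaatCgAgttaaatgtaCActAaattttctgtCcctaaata
Counted from 1 at the 5′ end of the first probe of each pair, the second differs by C33T and G39A in Rpl11, and by T24C, G26A, T37C, G38A, G41A and A52C in Rpl7a. The Rpl7a probes gave similar differences, 0.06 for the first, with 7.23 and 7.26 in the wild types and 7.28 and 7.32 in the mutants, and 0.10 for the second, with 5.62 and 5.70 against 5.72 and 5.78. Both had mutants above wild types. A further 11 member probes are placed on another chromosome than their gene, such as 4 of Rps27 and 3 of Rps29. Their median difference was 0.06, against 0.06 for the other member probes. Members with such probes are uncertain as to which copy was read.

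The first of the Rpl11 probes gives the most extreme member value of the arrays, and it comes from 1 spot. Its levels were 8.23 and 8.36 in the wild types, 8.35 in mutant mouse 1 and -6.10 in mutant mouse 2. That spot lies in the corner (rows 1 to 128, from column 139 on), where 14 member spots lie. An Rpl13 spot there was at 7.76, 7.86 and 7.88 in the other mice and at 5.58 in mutant mouse 2, with an outlier flag, and was left out. An Rpl27a spot with such a flag was 0.26 lower than the mean of the others, and that of Rpl3l 0.53 lower. The remaining 10 differed from the other mice by -0.01 to 0.09. Other probes stand for Rpl11, Rpl13 and Rpl27a, and leaving out the corner left 83 members tested, without Rpl3l and Rps23, and 0 called.

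**Figure D4:**
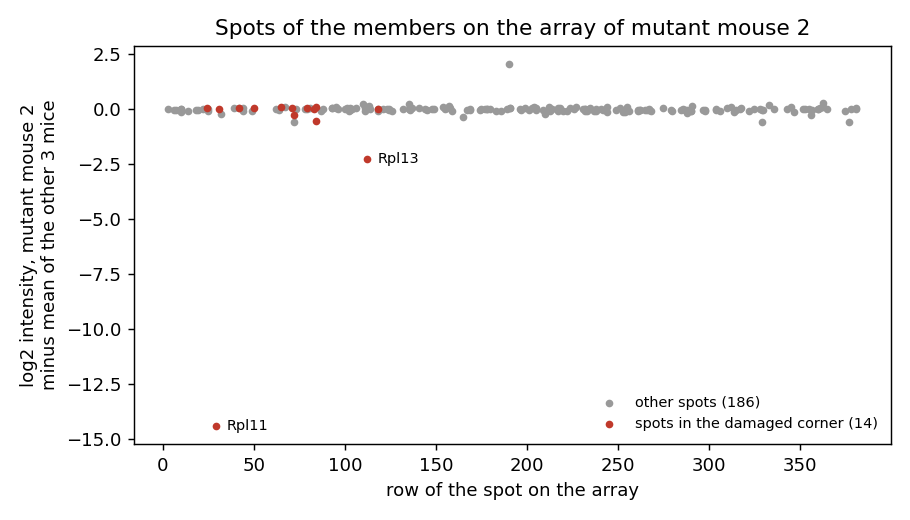
Log2 intensity in mutant mouse 2 minus the mean of the other 3 mice (y axis) for the 200 member spots, by row of the spot on the array (x axis), with the 14 spots of the corner in red. The Rpl11 spot lies at -14.4 and the Rpl13 spot at -2.25, a dim Rpl6 probe outside the corner lies at 2.05, and all others lie between -0.60 and 0.26.

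The wider translation machinery held no called gene either. Of 7 tested ribosome-associated genes (Fau, Tpt1, Naca, Btf3, Serbp1 and others) 0 passed in either direction, with a median difference of 0.10, the highest being Serbp1 at 0.15. Of 76 mitochondrial ribosomal proteins 0 passed, with a median of 0.07 and 66 above 0. Mrps14 had 2.78 and 2.88 in the wild types and 3.11 and 3.04 in the mutants (0.24 ± 0.11, adjusted p = 0.811). Of 64 ribosome biogenesis genes 0 passed, with a median of 0.14 and 57 above 0. Fbl, which encodes fibrillarin, the methyltransferase of ribosomal RNA, was at 2.71 and 3.14 against 3.31 and 3.25 (0.35 ± 0.18, adjusted p = 0.841). Mybbp1a and Utp20, both nucleolar, had differences of 0.34 and 0.33. Wild-type mouse 1 was the low one here too, with median deviations of -0.22, 0.08, 0.13 and 0.00 over the 64 genes. Without it the medians changed sign, to -0.01 for biogenesis and -0.01 for mitochondrial ribosomal proteins.

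Genes that make or steer the machinery gave like values. RNA polymerase I genes (19 tested) had a median of 0.09, with Polr1a at 0.22, initiation factors (55) 0.09, elongation and termination factors (16) 0.09, growth and mTOR control genes (22) 0.05 and S6 kinases (10) 0.06, with 0 called in each direction in every list. Without wild-type mouse 1 the median of the polymerase genes was -0.02 and that of the S6 kinases -0.07. Among the 24 other TOP transcripts the median was 0.06, and Gas5, a snoRNA host transcript, stood at the other side. Its levels were 4.00 and 3.96 in the wild types and 3.63 and 3.51 in the mutants, without overlap (-0.41 ± 0.11, adjusted p = 0.641). Of 15 tested genes of p53 and its targets 15 were above 0, with a median of 0.24, 5 at an unadjusted p under 0.05 and 0 called. Over all genes 53.5% were above 0, and 6.51% had an unadjusted p under 0.05 in limma. The list was written with earlier results of these data known. Trp53inp1 was at 1.30 and 0.94 against 1.84 and 2.01 (0.80 ± 0.17, adjusted p = 0.519), and Zmat3 at 1.16 and 1.22 against 1.73 and 1.70 (0.52 ± 0.10, adjusted p = 0.507). The members named above for a tie to p53 had differences of -0.01 (Rpl5), 0.05 (Rpl11), 0.18 (Rps27l), 0.04 (Rps19) and -0.02 (Rps20).

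**Figure D5:**
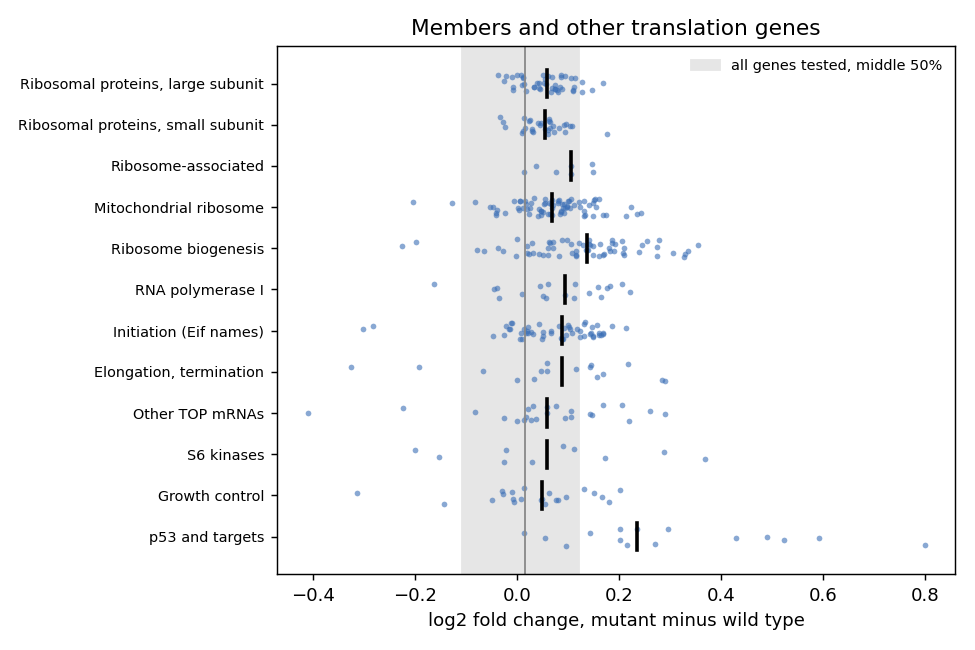
Log2 fold change (mutant minus wild type, x axis) of every tested gene in the subunit lists and 10 other lists, with black bars at the list medians, a grey line at the median of all genes (0.01) and a grey band for the middle 50% of all genes. The subunit genes lie between -0.04 and 0.18, the medians of all lists but p53 and its targets (0.24) lie between 0.05 and 0.14, and no gene shown passed the threshold.

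Members made up a stable share of the signal. Their 200 spots held 10% and 10.1% of the summed intensity of all non-control spots in wild-type mice 1 and 2, and 10.3% and 9.82% in mutant mice 1 and 2. These shares include the spots of the failed corner. Outside it they were 9.91% and 9.91% in the wild types and 10.1% and 9.82% in the mutants. In both cases the highest and the lowest share were those of mutants. The median member level was 7.31 and 7.35 in the wild types and 7.40 and 7.38 in the mutants.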

How the data were processed

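Spot intensities were deposited as written by Agilent Feature Extraction 10.7.3.1, per the file headers, which subtracted background and corrected a spatial trend with no scaling between arrays. Raw mean and local background intensities and flags of 0 or 1 (above background, saturated, outlier) were also deposited. A series table deposited by the authors gives spot values as a ratio to the array median, a scale found from the values.

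Values used here are log2 processed intensities minus the 75th percentile of their array, over non-control spots. Spots with an outlier flag (93 to 194 per array) were left out, and spots of a probe were averaged. Probes entered the test if well above background in both mice of a genotype. The tested probe with the highest mean stood for a gene, giving 23624 genes from 33664 probes. Mutants were compared with wild types with lmFit and eBayes of limma 3.58.1 in R 4.3.3 (files read with data.table, version 1.17.8), two-sided, with Benjamini-Hochberg adjustment over all genes and 2 residual and 2.5 prior degrees of freedom. The fit was tested on simulated data. The number of arrays limits the precision. Figures used matplotlib 3.10.9 in python 3.11.15.

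Members and gene lists were chosen with earlier results of these data known, and the limits of the corner were set after the data had been seen. Genes are named in the text by a rule: the members with the largest differences in each direction, members with a role of their own, paralogs with their parent genes, members whose probes disagree, and up to 3 genes of each companion list with the largest change. The values of 1 member are not reported here, though it is counted in the totals. Cell type marker lists were used only beside results they bear on, and the closing section gives those not named there. Of the member probes, 174 matched RefSeq by accession, which updated 2 gene names. The replicate numbers 1 and 2 of the labels are not explained. The difference between mice 2 and 1 correlated at -0.20 between the genotypes (-0.27 outside the corner), so that the numbers were not taken to pair the mice. Alternatives were other background, scaling, filter, probe and variance settings, a replicate block, and each mouse left out.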

Additional observations from a re-analysis of the deposited data

How the results depend on the processing

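No member was called under any of the 18 alternatives tried. The median difference of the members stayed above 0 in all of them, from 0.0079 (quantile normalization) to 0.09 (without wild-type mouse 2), while the median of all genes lay between -0.01 and 0.03. Not all of these are separate checks of the median. The trend and robust options of eBayes, array weights and the replicate blocks left the differences as they were, with a median of 0.05, so that no sign could change. The series table, a ratio to the array median, repeated centring on that median (0.07 in both). The count of genes called in all, 4, was 2 after quantile normalization, 2 with the 75th percentile taken over probes above background on all arrays, 1 without the filter on dim probes, 1 with probes above background on all 4 arrays required, and 14 with the trend and robust options of eBayes. Leaving out each mouse in turn gave 0 to 81, the latter without mutant mouse 1. With the replicate block it was 1. A crossed block, added after the data had been seen, also gave 1, and 0 members. The count of members without overlap, 32, was 20 after quantile normalization, 17 with centring on the array median and 17 with the series table, where 36.6%, 33.9% and 33.9% of all genes did not overlap. With 1 mouse left out it was 45 to 72, where 64.1% to 72.3% of all genes do not overlap. Leaving out probes in the first 250 bases, also added later, gave 30. Of 1540 values of single genes under alternatives 122 changed sign, in 47 of 86 genes (the 85 tested members and Rela), and 0 passed the threshold. The 1540 include the settings named above that left the differences as they were, where no sign could change. They also count the series table beside the centring that it repeats. With 2 mice per group, any difference within the interval of a gene remains compatible with its data. An uncalled gene is not shown to be unchanged.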

Other observations

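Some other markers of the ear had larger differences than the ribosomal protein genes, with 0 called in each list. The 4 melanocyte markers had a median difference of 1.24, with Tyrp1 at 0.17 and -0.11 in the wild types and 1.26 and 1.48 in the mutants (1.35 ± 0.16, adjusted p = 0.386). Of the 5 neutrophil markers, whose median was 0.21, 3 were above 0 and 2 below. S100a8 was at 5.05 and 5.49 against 6.97 and 6.98 (1.71 ± 0.18, adjusted p = 0.363), while Ly6g differed by -0.09. Which cells of the ear made these transcripts was not tested. Medians were 0.10 for 7 keratinocyte markers, -0.24 for 4 of T cells, -0.38 for 3 of B cells, -0.14 for 4 of macrophages, 0.04 for 5 of fibroblasts, -0.11 for 4 of endothelium, -0.21 for 5 of muscle, -0.31 for 4 of adipocytes, 0.01 for 3 of cartilage and -0.82 for 3 of red blood cells. With each mouse left out in turn the median ranged from -1.50 to -0.14 for red blood cells, 0.03 to 0.38 for neutrophils, 0.01 to 0.19 for keratinocytes and -0.39 to -0.10 for T cells, and the value nearest to 0 was that without wild-type mouse 1 in each. The median changed sign under at least 1 alternative for fibroblasts (as low as -0.04), for cartilage (as low as -0.21) and for muscle (0.07 without mutant mouse 2).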
